A study of Mus musculus with 16 samples.

Results

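The genes described here mark the projection neurons of the striatum, and they were read in cells sorted for another cell type, the parvalbumin interneuron. The set holds 31 genes. Each was followed through the transcript cluster annotated with its symbol, with the cluster of highest mean taken where a gene had several. Of the 31, 30 were measured among 30743 named genes, and 1, Adora2a, matched no named cluster and is not analysed here. They were placed in 3 groups by what is known of them: 5 genes of the direct pathway, 7 of the indirect pathway (6 measured) and 19 shared by both.

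Medium spiny projection neurons are the GABAergic output cells of the striatum. Those of the direct pathway carry the D1 dopamine receptor with the peptides dynorphin and substance P and project to the output nuclei of the basal ganglia; those of the indirect pathway carry the D2 receptor with enkephalin and project to the external globus pallidus. Both kinds share a signalling apparatus around cAMP and the phosphoprotein DARPP-32, and transcription factors that set their identity. Parvalbumin interneurons of the striatum and cortex are fast-spiking inhibitory cells with local axons.

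The arrays came from cells that carried the red fluorescent protein tdTomato as a reporter of parvalbumin, taken by fluorescence sorting from male C57BL/6J mice aged 30 days, per the labels. In the PV-tdTomato/+ mice the reporter was made without Cre recombinase. In the PVCre/+; tdTomato/+ mice, parvalbumin cells made Cre, which turned on the reporter allele. Both lines gave 4 arrays of dorsal striatum and 4 of cortex (motor and somatosensory), 16 arrays in all, from untreated animals. Each array was made from 2000 cells pooled from 2 to 4 mice, so that a replicate is a pool and not an animal, and p-values measure the spread between pools.

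Several arrays stood apart before any region was compared. Levels are RMA values in log2 units, where 1 unit is a doubling, and 23 background probe sets had means of up to 6.1. Pvalb, the gene that defines the sort, lay between 6.69 and 8.40 in 6 arrays: PV-tdTomato striatum and cortex replicates 3 and 4, and PVCre cortex replicates 2 and 4. It lay between 10.20 and 12.48 in the other 10. Gad1, for an enzyme of GABA synthesis, was between 11.63 and 14.43 in 14 arrays, and at 8.88 and 7.40 in PVCre cortex replicates 2 and 4. Xist, an RNA of the female inactive X chromosome, was between 13.40 and 16.01 in 8 arrays although every sample is labelled male: replicate 3 of both PV-tdTomato groups, replicates 1, 3 and 4 of PVCre striatum, and replicates 1, 3 and 4 of PVCre cortex. It was between 5.71 and 6.56 in the other 8. The comparisons were also fitted without the 6 arrays low in Pvalb and with the Xist level as a covariate. The former fit kept every array of PVCre striatum, but only replicates 1 and 3 of PVCre cortex. For PV-tdTomato it kept only replicates 1 and 2 in either region. Its standard errors and p-values rest on these few pools and are less certain than those from all 16 arrays.

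Projection neuron genes stood at higher levels in striatal than in cortical arrays of both lines. Striatum was compared with cortex by limma, with 1 mean for each of the 4 groups and p-values adjusted over all 20495 genes tested. A gene was called at an adjusted p under 0.05. Of the 31 genes, 27 were tested, and Six3, Ido1 and Serpina9 lay below the filter on low means. In the PV-tdTomato line 6 of 27 were higher in striatum and 0 lower, beside 1.73% of all tested genes called higher and 0.59% called lower. In the PVCre line 8 of 27 were higher and 0 lower, beside 2.85% and 1.04% of all tested genes. Averaged over both lines, 13 of 27 were higher and 0 lower, beside 3.32% and 0.927%. In these comparisons 15, 17 and 18 members had an unadjusted p under 0.05. Without the 6 arrays low in Pvalb, 4 were higher in PV-tdTomato, 7 in PVCre and 10 over both lines, where 1, Tac1, was lower. Of all tested genes 3.23%, 2.06% and 4.58% were then called higher. The PVCre count was 5 without striatum replicate 2 and 5 without cortex replicate 4 of that line, and 6 with the Xist covariate. Beside these, 2.11%, 2.21% and 2.61% of all tested genes were called higher. The median difference of the 27 members was 0.62 in the PV-tdTomato line, 0.73 in the PVCre line and 0.60 over both, where the medians of all tested genes were 0.02, -0.01 and 0.00. In such pools, fewer cells of a type and less RNA per cell cannot be told apart.

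**Figure D1:**
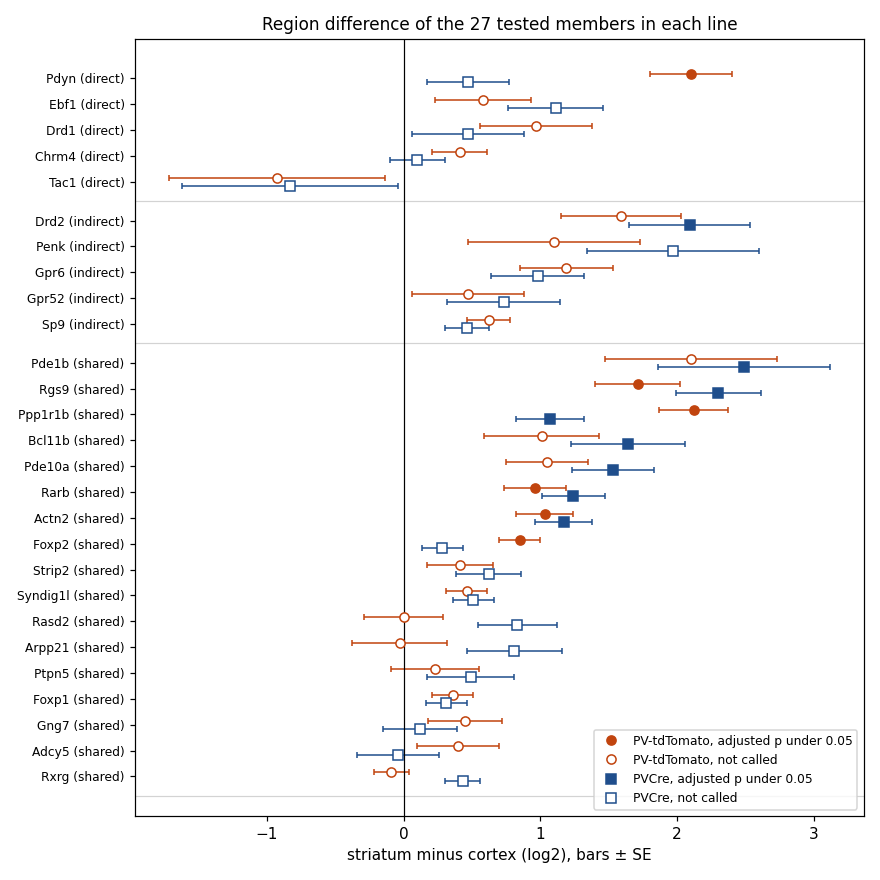
Striatum minus cortex on the log2 scale for the 27 tested genes (points, with bars of 1 SE) in the PV-tdTomato line (circles) and the PVCre line (squares), in 3 blocks from direct to indirect to shared. Filled symbols, all to the right of 0, mark the 6 and 8 genes called at a limma adjusted p under 0.05.

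Called genes were also counted in each group, beside 1.73% of all tested genes called higher in PV-tdTomato, 2.85% in PVCre and 3.32% over both. Of the direct-pathway genes, 1 of 5 was called in the PV-tdTomato line, 0 of 5 in the PVCre line and 1 of 5 over both. Of the indirect-pathway genes the counts were 0 of 5, 1 of 5 and 3 of 5. Of the shared genes they were 5 of 17, 7 of 17 and 9 of 17. Where limma called 0, 1 direct gene in PVCre and 3 indirect genes in PV-tdTomato had an unadjusted p under 0.05. With the 6 arrays low in Pvalb left out, the counts in PV-tdTomato, PVCre and both lines were 1, 0 and 1 higher for the direct genes (and Tac1 lower over both), 1, 2 and 1 for the indirect genes, and 2, 5 and 8 for the shared genes. Of all tested genes 3.23%, 2.06% and 4.58% were then called higher. The median difference was 0.58 and 0.47 in the 2 lines for the direct group, 1.10 and 0.98 for the indirect group, and 0.46 and 0.81 for the shared group. Leaving out those 6 arrays moved these medians to 0.62 and -0.05 for the direct group, 0.34 and 1.03 for the indirect group, and 0.35 and 0.67 for the shared group. These groups are small, so that 0 or 1 call of 5 says little, and no difference between them was tested. Medians were also taken with Foxp2 counted as direct, and Gpr52, Six3 and Sp9 as shared. In the 2 lines they were then 0.72 and 0.37 for the direct group and 0.47 and 0.77 for the shared group. The indirect group, with only 3 tested genes left, had 1.19 and 1.97.

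Striatal arrays all lay above cortical arrays for 11 of the 27 genes in the PV-tdTomato line, beside 3.72% of all tested genes, and for 16 in the PVCre line, beside 5.96%. This held in both lines for 8 genes, Pdyn, Gpr6, Ppp1r1b, Rgs9, Pde10a, Pde1b, Rarb and Actn2, beside 2.08% of all tested genes. No gene of the set had all striatal arrays below the cortical ones, as 2.25% of all tested genes did in PV-tdTomato and 7.39% in PVCre.

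Among the direct-pathway genes, Pdyn alone was called, and it was high in one line. Pdyn encodes prodynorphin, the precursor of the dynorphin peptides. In PV-tdTomato striatum its level was 9.01, 9.04, 7.52 and 7.61 in replicates 1 to 4, and in PV-tdTomato cortex 6.23, 6.49, 5.96 and 6.12. In PVCre striatum it was 6.40, 6.33, 6.11 and 6.01, and in PVCre cortex 5.77, 5.79, 5.69 and 5.73. The PV-tdTomato striatal arrays thus stood above all 12 others, most of which lay near the background. The difference was 2.10 ± 0.30 (SE; 4.28-fold, limma adjusted p = 0.00068) in the PV-tdTomato line and 0.47 ± 0.30 (adjusted p = 0.48) in the PVCre line. The region difference was smaller in PVCre by -1.63 ± 0.42, which did not pass the test between lines (adjusted p = 0.21). That value was, without the 6 arrays low in Pvalb, -2.19 ± 0.22 (adjusted p = 0.0019), with Pdyn in the PV-tdTomato line at 2.67 ± 0.17.

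Drd1, which encodes the D1 dopamine receptor that raises cAMP, was not called. Its levels were 8.30, 8.84, 8.04 and 8.50 in PV-tdTomato striatum and 8.05, 7.78, 6.85 and 7.12 in PV-tdTomato cortex. They were 9.02, 9.04, 8.05 and 7.63 in PVCre striatum and 7.92, 7.72, 9.04 and 7.15 in PVCre cortex. In the first line only striatum replicate 3 fell below a cortical array, and in the second a cortical array, replicate 3, equalled the highest striatal one. The difference was 0.97 ± 0.41 (limma adjusted p = 0.52) in the PV-tdTomato line and 0.47 ± 0.41 (adjusted p = 0.62) in the PVCre line, where it was -0.05 ± 0.46 without the 6 arrays low in Pvalb.

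Tac1, the precursor gene of substance P, had the only negative difference over both lines, and did not pass. Its striatal levels in the PV-tdTomato line were 6.67, 6.78, 6.89 and 6.83, against 9.59, 8.53, 6.31 and 6.47 in cortex. In the PVCre line they were 8.27, 7.68, 7.13 and 6.76 in striatum and 9.00, 7.30, 10.32 and 6.53 in cortex. The cortical groups were spread over several log2 units, and the high cortical arrays were replicates 1 and 2 of the first line and 1 and 3 of the second, which were also high in Pvalb. The difference over both lines was -0.88 ± 0.56 (limma adjusted p = 0.47). With the 6 arrays low in Pvalb left out, only these high cortical arrays remained in cortex. The difference was then -2.27 ± 0.38 (adjusted p = 0.0081), and Tac1 was called lower in striatum.

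Ebf1, a transcription factor of direct-pathway neurons that vascular mural cells also express, was at 7.88, 6.96, 6.00 and 6.22 in PVCre striatum and at 5.74, 5.55, 5.49 and 5.87 in PVCre cortex. It was at 5.69, 5.66, 6.50 and 6.15 in PV-tdTomato striatum and at 5.13, 4.98, 5.65 and 5.91 in PV-tdTomato cortex. Only in PVCre did the regions not overlap, and the highest array, striatum replicate 1, was also the highest in endothelial and mural markers, with a mean level over 15 genes of 8.82. The other PVCre striatal arrays had 6.86 to 7.18 for that list. The part of those cells in the Ebf1 levels was not tested. Ebf1 differed by 1.11 ± 0.35 (limma adjusted p = 0.11) in the PVCre line and by 0.85 ± 0.25 (adjusted p = 0.075) over both. The latter was called without PVCre striatum replicate 3, at 0.97 (adjusted p = 0.033). Chrm4, the M4 muscarinic receptor, lay between 5.37 and 6.57 in every array, near the background, and its regions overlapped in both lines. It differed by 0.41 ± 0.20 in the PV-tdTomato line and 0.10 ± 0.20 in the PVCre line.

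**Figure D2:**
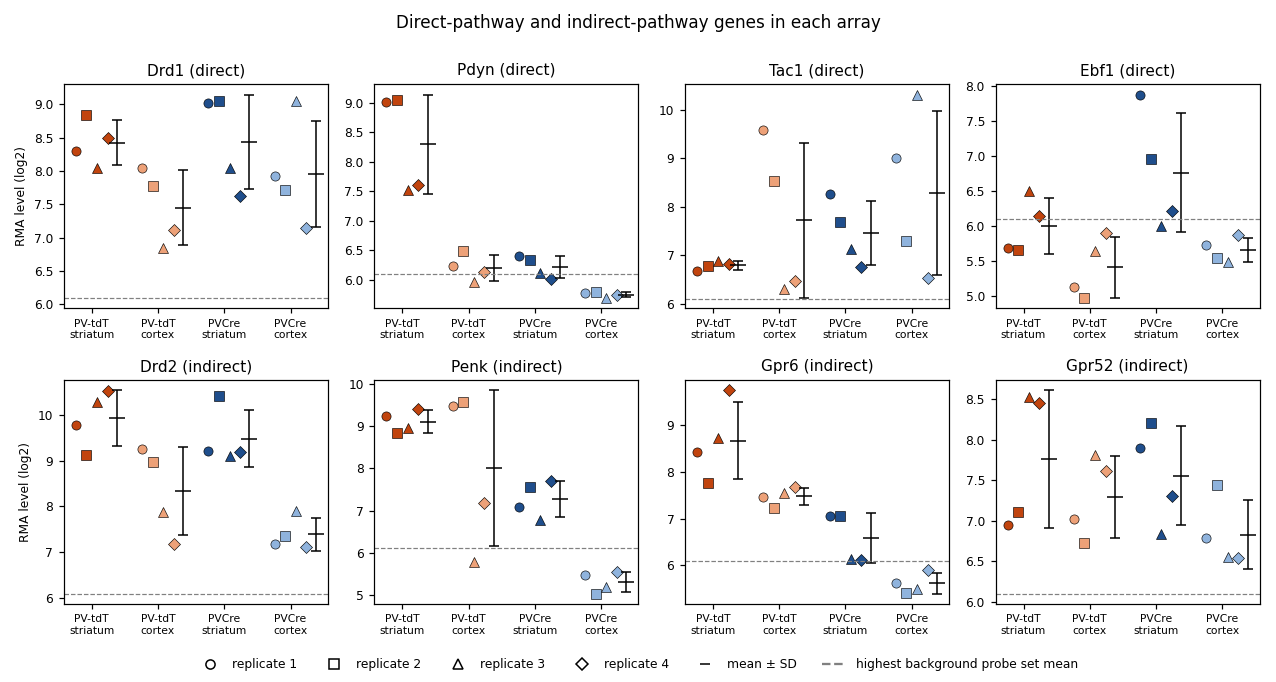
RMA levels (log2) of 4 direct-pathway genes (top) and 4 indirect-pathway genes (bottom) in each array, by line and region, with the group mean ± SD beside the points and the highest background mean as a dashed line. Pdyn stands out in PV-tdTomato striatum, at 7.52 to 9.04, and the 4 arrays of PVCre cortex are the lowest group for Penk and Gpr6.

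Of the indirect-pathway genes, Drd2, Gpr6 and Sp9 were higher in striatum over both lines. Drd2 encodes the D2 dopamine receptor, which lowers cAMP. Its levels were 9.21, 10.40, 9.11 and 9.19 in PVCre striatum and 7.19, 7.35, 7.91 and 7.12 in PVCre cortex, with a gap of 1.21 between the groups. In the PV-tdTomato line they were 9.78, 9.13, 10.27 and 10.51 in striatum and 9.26, 8.97, 7.89 and 7.19 in cortex. Here the lowest striatal array fell below the highest cortical one, and the low cortical arrays were the pair low in Pvalb. Drd2 rose by 2.09 ± 0.44 (SE; 4.25-fold, limma adjusted p = 0.014) in the PVCre line and by 1.84 ± 0.31 (adjusted p = 0.0019) over both. The difference in the PV-tdTomato line was 1.59 ± 0.44 (adjusted p = 0.097), or 1.91 (adjusted p = 0.043) without cortex replicate 1. It was called with the description number as a random block (adjusted p = 0.044), but not with the replicate number as a fixed block (adjusted p = 0.19). It was 0.34 ± 0.45 there, and 1.13 (adjusted p = 0.054) over both lines, without the 6 arrays low in Pvalb.

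Gpr6, a constitutively active receptor that raises cAMP and is enriched in indirect-pathway neurons, was higher in striatum without overlap in both lines. The striatal and cortical levels in the PV-tdTomato line were 8.43, 7.77, 8.73 and 9.75 against 7.47, 7.23, 7.54 and 7.68. In the PVCre line they were 7.06, 7.05, 6.14 and 6.12 against 5.63, 5.41, 5.50 and 5.91. All cortical PVCre arrays lay within the background, and the groups were separated by 0.10 and 0.21. The differences were 1.19 ± 0.34 (limma adjusted p = 0.11) and 0.98 ± 0.34 (adjusted p = 0.15). Over both lines the gene rose by 1.09 ± 0.24 (2.12-fold, adjusted p = 0.015). In the PV-tdTomato line it was called without striatum replicate 2, at 1.49 (adjusted p = 0.022), and with the description number as a random block (adjusted p = 0.024). With the replicate number as a fixed block it was not called there (adjusted p = 0.069). It was 0.76 ± 0.37 there, and 0.89 (adjusted p = 0.066) over both lines, without the 6 arrays low in Pvalb.

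Penk, the precursor gene of the enkephalins, was not called, and its cortical levels in the PV-tdTomato line split widely. They were 9.48, 9.57, 5.78 and 7.18, against 9.24, 8.83, 8.95 and 9.42 in striatum. In PVCre the striatal arrays, at 7.08, 7.56, 6.77 and 7.70, all lay above the cortical ones, at 5.46, 5.03, 5.18 and 5.55, which were within the background. The difference was 1.97 ± 0.63 (limma adjusted p = 0.12) in the PVCre line and 1.10 ± 0.63 (adjusted p = 0.81) in the PV-tdTomato line. In PVCre the gene was called without PV-tdTomato cortex replicate 3, an array outside that comparison that holds part of the shared spread, with the same difference and adjusted p = 0.017, and with only the PVCre arrays in the fit (1.97 ± 0.23, adjusted p = 0.0027). Over both lines it was 1.54 ± 0.44 (adjusted p = 0.074), and was called without PV-tdTomato cortex replicate 1, at 1.79, or replicate 2, at 1.80. Without the 6 arrays low in Pvalb the PV-tdTomato difference was -0.50 ± 0.30 and the PVCre one 1.96 (adjusted p = 0.0059), and these differed by 2.45 ± 0.40 (adjusted p = 0.031). Other GABAergic markers, which in cortex include interneurons that make enkephalin, averaged 11.22 and 11.49 over 17 genes in the PV-tdTomato cortical arrays high in Penk and 9.47 and 9.77 in the other two. Their part in the Penk levels was not tested.

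Sp9, a transcription factor of indirect-pathway neurons and of interneurons, was at 7.96, 7.83, 7.12 and 7.41 in PV-tdTomato striatum and at 7.17, 7.02, 6.85 and 6.82 in cortex. In the PVCre line it was at 7.50, 7.48, 7.63 and 7.43 in striatum and 7.03, 6.85, 7.19 and 7.14 in cortex. The regions overlapped slightly in the first line and not in the second. Sp9 rose by 0.54 ± 0.11 (1.45-fold, limma adjusted p = 0.012) over both lines, while the difference was 0.62 ± 0.16 (adjusted p = 0.073) and 0.46 ± 0.16 (adjusted p = 0.17) in each. With the replicate number as a block, which assumes that it pairs the PV-tdTomato pools of the 2 regions, the first had an adjusted p of 0.027. It was also called without PV-tdTomato striatum replicate 3, at 0.77 (adjusted p = 0.0081), with the description number as a random block (adjusted p = 0.012), and without the 6 arrays low in Pvalb, at 0.80 ± 0.14 (adjusted p = 0.013). Gpr52, a receptor of indirect-pathway neurons that raises cAMP, was at 6.95, 7.11, 8.53 and 8.45 in PV-tdTomato striatum and 7.02, 6.72, 7.81 and 7.61 in cortex. In PVCre it was at 7.89, 8.20, 6.83 and 7.30 against 6.78, 7.44, 6.55 and 6.54. Its regions overlapped in both lines, and in PV-tdTomato the arrays low in Pvalb were the high ones in both regions. Six3, a transcription factor of this group, lay between 5.02 and 5.84 in every array, within the background.

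RefSeq promoter windows (GRCm38.p6) were found for 23 of the 31 genes, and the 250 bases before the start site of 4 of them are given because these genes bear the region difference: Gpr6 and Drd2 of the indirect pathway, and the shared genes Rgs9 and Rarb. They lie at chr10:41072291-41072540 (minus strand), chr9:49340153-49340402 (plus strand), chr11:109298182-109298431 (minus strand) and chr14:16575477-16575726 (minus strand). Capitals mark the motifs that were searched for on both strands: TGACGTCA (cAMP response element), GTTCANNNNNAGTTCA (a direct repeat bound by retinoic acid receptors), CCCGCCC (the GC box) and CCAAT (a box named after its letters). No matches overlap here.
Gpr6: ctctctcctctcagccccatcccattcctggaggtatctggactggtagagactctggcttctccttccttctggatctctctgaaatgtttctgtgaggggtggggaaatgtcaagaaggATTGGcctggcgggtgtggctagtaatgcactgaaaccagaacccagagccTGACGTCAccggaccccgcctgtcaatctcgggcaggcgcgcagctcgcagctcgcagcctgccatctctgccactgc
Drd2: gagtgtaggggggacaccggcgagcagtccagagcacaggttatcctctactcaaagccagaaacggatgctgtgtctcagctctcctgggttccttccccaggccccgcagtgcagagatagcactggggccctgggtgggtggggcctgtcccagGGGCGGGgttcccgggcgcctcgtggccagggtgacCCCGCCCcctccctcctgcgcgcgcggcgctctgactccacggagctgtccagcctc
Rgs9: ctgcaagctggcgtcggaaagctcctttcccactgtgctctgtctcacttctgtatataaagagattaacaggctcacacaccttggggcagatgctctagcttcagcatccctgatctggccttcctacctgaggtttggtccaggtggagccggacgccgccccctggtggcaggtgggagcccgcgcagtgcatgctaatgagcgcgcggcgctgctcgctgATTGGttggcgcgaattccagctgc
Rarb: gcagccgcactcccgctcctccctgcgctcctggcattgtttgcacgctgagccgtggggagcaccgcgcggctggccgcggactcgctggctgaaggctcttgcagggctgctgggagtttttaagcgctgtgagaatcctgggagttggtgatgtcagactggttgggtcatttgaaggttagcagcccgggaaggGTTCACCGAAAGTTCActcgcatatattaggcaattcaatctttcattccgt

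Gpr6 had a cAMP response element 78 bases before its start and a CCAAT box, read on the other strand, at 129. It was the only one of the 42 windows of these genes with TGACGTCA, which 1.55% of all 32851 windows hold. Rarb, the retinoic acid receptor beta, had the direct repeat 52 bases before its start, and 0.0274% of all windows, or 9, hold that pattern. The search used only the form of the repeat whose letters stand in the Rarb window. Its share is therefore not that of such repeats in general, and its presence in Rarb is not a finding of the search. Drd2 had GC boxes at 93 and 57 bases, a motif in 11 of the 42 windows and in 23.4% of all. Rgs9 had a CCAAT box at 25 bases, a motif in 18 of the 42 windows and in 33.8% of all. A match describes the sequence only, and binding was not measured.

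The genes shared by both pathways, 17 of the 27 tested, gave 9 of the 13 calls over both lines. Ppp1r1b, Rgs9, Rarb and Actn2 were higher in striatum in both lines, where 1.3% of all tested genes were called higher in both. Ppp1r1b encodes DARPP-32, which turns dopamine signals into inhibition of protein phosphatase. Its levels in the PV-tdTomato line were 8.42, 8.06, 8.77 and 9.20 in striatum and 6.73, 6.47, 6.34 and 6.42 in cortex. In the PVCre line they were 6.96, 7.87, 6.85 and 6.87 in striatum and 6.19, 6.21, 5.95 and 5.93 in cortex. The regions did not overlap in either line, and the PVCre striatal arrays reached less far above the background than the PV-tdTomato striatal ones. Ppp1r1b rose by 2.12 ± 0.25 (4.36-fold, limma adjusted p = 0.00013) and by 1.07 ± 0.25 (2.10-fold, adjusted p = 0.024). The difference between these, -1.06 ± 0.35, did not pass (adjusted p = 0.39). The PVCre call was lost without striatum replicate 2 (0.82, adjusted p = 0.059), cortex replicate 3 (1.03, 0.054) or cortex replicate 4 (1.02, 0.073), and without the 6 arrays low in Pvalb (1.07, 0.095).

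Rgs9, a regulator that shortens dopamine receptor signalling, was at 9.25, 9.53, 10.32 and 10.33 in PV-tdTomato striatum and at 8.05, 8.21, 7.92 and 8.41 in cortex. In PVCre it was at 8.93, 9.73, 8.19 and 8.37 in striatum and at 6.39, 6.70, 6.63 and 6.31 in cortex. The gap between the regions was 0.84 and 1.49. Rgs9 rose by 1.71 ± 0.31 (3.27-fold, limma adjusted p = 0.0053) and by 2.30 ± 0.31 (4.92-fold, adjusted p = 0.00035). No single array left out ended either call, but in the PV-tdTomato line the difference was 1.26 ± 0.43 (adjusted p = 0.15) without the 6 arrays low in Pvalb.

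Rarb was at 7.98, 8.09, 7.68 and 7.92 in PV-tdTomato striatum and at 7.26, 7.40, 6.59 and 6.56 in cortex. In PVCre it was at 7.61, 8.05, 7.58 and 7.85 in striatum and at 6.25, 6.43, 7.13 and 6.30 in cortex. The regions did not overlap. Rarb rose by 0.96 ± 0.23 (1.95-fold, limma adjusted p = 0.036) in the PV-tdTomato line and by 1.24 ± 0.23 (2.36-fold, adjusted p = 0.0049) in the PVCre line. The first call was lost without any 1 of 7 arrays: PV-tdTomato striatum replicates 1, 2 and 4, PV-tdTomato cortex replicates 3 and 4, PVCre striatum replicate 4 and PVCre cortex replicate 2, with values of 0.83 to 0.96 and adjusted p of 0.05 to 0.12. It was also lost with quantile normalization (0.80, adjusted p = 0.12), with arrays centred on their medians (0.91, 0.074), with only the PV-tdTomato arrays in the fit (0.12) and without the 6 arrays low in Pvalb (0.70, 0.20).

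Actn2, an actin cross-linker of dendritic spines, was at 7.58, 7.36, 6.78 and 7.11 in PV-tdTomato striatum and at 6.60, 6.24, 5.96 and 5.90 in cortex. In PVCre it was at 6.60, 7.42, 7.25 and 7.14 in striatum and at 6.13, 5.68, 6.03 and 5.91 in cortex. The cortical levels lay near the background and below every striatal array of the same line. The rise was 1.03 ± 0.21 (2.05-fold, limma adjusted p = 0.014) and 1.17 ± 0.21 (2.24-fold, adjusted p = 0.0049). The PV-tdTomato call was lost without striatum replicate 1 (0.91, adjusted p = 0.064), striatum replicate 2 (0.98, 0.055) or cortex replicate 4 (0.94, 0.052). It was also lost with quantile normalization (0.86, 0.084), with only the PV-tdTomato arrays in the fit (0.086) and without the 6 arrays low in Pvalb (1.05, 0.055).

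**Figure D3:**
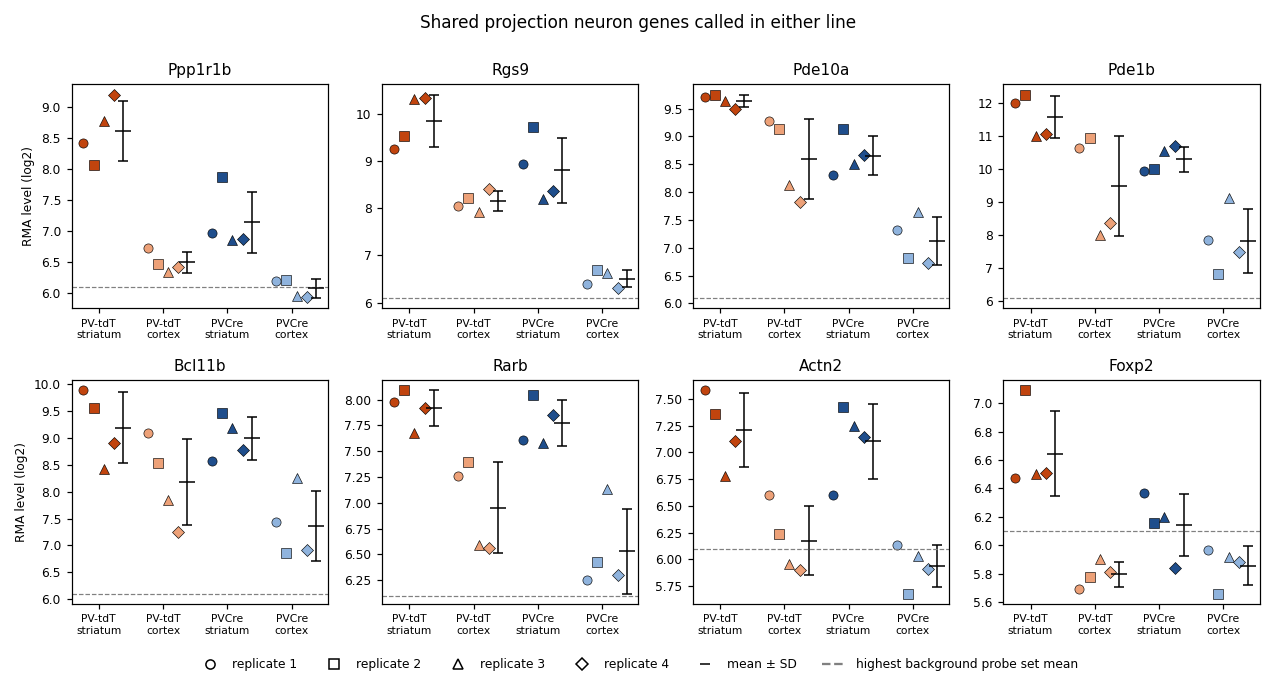
RMA levels (log2) of the 8 shared genes called in at least 1 line, in each array by line and region, with the group mean ± SD beside the points and the highest background mean as a dashed line. Striatal and cortical arrays do not overlap in either line for Ppp1r1b, Rgs9, Pde10a, Pde1b, Rarb and Actn2.

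Pde10a, Pde1b and Bcl11b were called in PVCre and over both lines. Pde10a encodes a phosphodiesterase that breaks down cAMP and cGMP and is concentrated in projection neurons. It was at 8.31, 9.13, 8.51 and 8.67 in PVCre striatum and at 7.31, 6.81, 7.65 and 6.73 in cortex. In PV-tdTomato it was at 9.70, 9.74, 9.64 and 9.49 in striatum and at 9.27, 9.13, 8.12 and 7.83 in cortex. The PV-tdTomato striatal arrays lay close together, and cortex spread further down in the arrays low in Pvalb. Pde10a rose by 1.53 ± 0.30 (2.89-fold, limma adjusted p = 0.0091) in PVCre. The PV-tdTomato difference was 1.05 ± 0.30 (adjusted p = 0.12), called without cortex replicate 1 at 1.28 (adjusted p = 0.045) and with the description number as a random block (adjusted p = 0.032). It was not called with the replicate number as a fixed block (adjusted p = 0.12). It was 0.52 ± 0.25 (adjusted p = 0.30) without the 6 arrays low in Pvalb.

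Pde1b, a calcium-activated phosphodiesterase, was called in PVCre by a narrow margin. It was at 9.95, 10.01, 10.55 and 10.72 in PVCre striatum and at 7.84, 6.82, 9.13 and 7.48 in cortex. In PV-tdTomato it was at 12.01, 12.27, 11.02 and 11.07 in striatum and at 10.64, 10.96, 8.02 and 8.38 in cortex. No cortical array reached the striatal range of its line, although the gap was 0.07 in PV-tdTomato. Pde1b rose by 2.49 ± 0.63 (5.61-fold, limma adjusted p = 0.042) in PVCre, while the PV-tdTomato difference was 2.10 ± 0.63 (adjusted p = 0.15, or 0.018 with the replicate number as a block). These values were 1.82 ± 0.36 (adjusted p = 0.029) and 1.34 ± 0.41 (adjusted p = 0.11) without the 6 arrays low in Pvalb. The PVCre call was lost without any 1 of 9 arrays: PV-tdTomato striatum replicates 1 and 4, all of PVCre striatum, and PVCre cortex replicates 1, 2 and 4, with values of 2.16 to 2.61 and adjusted p of 0.052 to 0.14. With the Xist level as a covariate it was 2.45 (adjusted p = 0.058), with no filter on low values the adjusted p was 0.055, and with centred arrays the value was 2.43 (0.052).

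Bcl11b, also called Ctip2, is a transcription factor of projection neurons and of deep-layer cortical neurons. It was at 8.57, 9.46, 9.19 and 8.77 in PVCre striatum and at 7.43, 6.85, 8.26 and 6.91 in cortex. In PV-tdTomato it was at 9.89, 9.56, 8.42 and 8.91 in striatum and at 9.09, 8.54, 7.85 and 7.25 in cortex, so that the regions overlapped there. Bcl11b rose by 1.64 ± 0.42 (3.11-fold, limma adjusted p = 0.045) in PVCre, and the PV-tdTomato difference was 1.01 ± 0.42 (adjusted p = 0.50). The PVCre call was lost without any 1 of 11 arrays: PV-tdTomato striatum replicates 2 and 4, PV-tdTomato cortex replicates 2 and 3, all of PVCre striatum, and PVCre cortex replicates 1, 2 and 4. The values were then 1.46 to 1.78 and the adjusted p 0.053 to 0.14. It was also lost with the Xist level as a covariate (1.60, adjusted p = 0.057), with no filter on low values (0.059), with centred arrays (1.58, 0.059) and without the 6 arrays low in Pvalb (1.15, 0.097).

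Foxp2, a forkhead transcription factor found in projection neurons, was higher in the striatum of the PV-tdTomato line. It was at 6.47, 7.09, 6.50 and 6.51 there and at 5.69, 5.78, 5.90 and 5.81 in cortex. In PVCre it was at 6.37, 6.16, 6.20 and 5.84 in striatum and at 5.97, 5.66, 5.92 and 5.88 in cortex. The 12 arrays outside PV-tdTomato striatum were near the background, and the PVCre regions overlapped. Foxp2 rose by 0.85 ± 0.15 (1.80-fold, limma adjusted p = 0.004) in the PV-tdTomato line, and the PVCre difference was 0.28 ± 0.15 (adjusted p = 0.39). The difference between the lines, -0.57 ± 0.21, did not pass (adjusted p = 0.48). Syndig1l, a membrane protein of striatal neurons, was called over both lines at 0.48 ± 0.11 (adjusted p = 0.016), between 6.19 and 6.78 in striatum and 5.70 and 6.29 in cortex. It was 0.47 (adjusted p = 0.089) without the 6 arrays low in Pvalb, and in PVCre it was called without cortex replicate 2, at 0.61 (adjusted p = 0.047).

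Of the other 10 shared genes, 8 were tested, and none of these was called by region in either line or over both. Among the measured signalling genes, Gng7, the G protein gamma subunit of the striatal receptor pathway, was abundant in both regions, at 9.84 to 11.60 in striatum and 10.07 to 10.88 in cortex. Adcy5, the main adenylyl cyclase of projection neurons, was at 7.75 to 10.09 in striatum and 7.79 to 9.31 in cortex. Arpp21, a cAMP-regulated phosphoprotein, and Ptpn5, the striatal-enriched phosphatase, were also well above background in PV-tdTomato cortex, at 9.40 to 10.26 and 7.28 to 9.14. The differences over both lines were 0.29 ± 0.19, 0.18 ± 0.21, 0.39 ± 0.25 and 0.36 ± 0.23 for these 4 genes, each smaller than 2 of its standard errors. Rasd2 (Rhes), a small GTPase of projection neurons, differed by 0.83 ± 0.29 in PVCre (limma adjusted p = 0.15), where its regions did not overlap, and by 0.00 ± 0.29 in PV-tdTomato. Rxrg, a retinoid receptor, differed by 0.43 ± 0.13 (adjusted p = 0.11) and -0.09 ± 0.13, and Strip2 by 0.62 ± 0.24 and 0.41 ± 0.24. With only the PVCre arrays in the fit, Rasd2 (adjusted p = 0.021) and Strip2 (adjusted p = 0.02) were called in PVCre at the same differences. Foxp1, a forkhead factor of projection neurons and cortical neurons, differed by 0.34 ± 0.11 over both lines (adjusted p = 0.10). Single arrays left out brought 3 calls here: Arpp21 in PVCre without PVCre cortex replicate 1 (1.18, adjusted p = 0.047), and, over both lines, Strip2 without PV-tdTomato cortex replicate 1 (0.63, 0.021) and Foxp1 without PVCre cortex replicate 1 (0.39, 0.046). Ido1 and Serpina9, the 2 below the filter, lay between 5.01 and 5.45 and between 4.59 and 5.76.

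No member passed the limma test of a region difference that differs between the lines, beside 0.195% of all tested genes, and 4 members had an unadjusted p under 0.05. The counts of 6 and 8 in the lines are therefore not shown to differ.

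Many genes of the set were lower in PVCre than in PV-tdTomato arrays, and so were many others. In striatum 12 of 27 members were lower in PVCre and 0 higher, beside 35.0% of all tested genes called lower and 18.3% called higher. In cortex 11 of 27 were lower and 0 higher, beside 34.4% and 19.2%. The lower shares are near the background, while 0 of 27 higher lies below it, and line and any batch that went with it cannot be told apart. The median over all genes was itself -0.22 in both regions, and -0.02 in striatum and 0.02 in cortex after quantile normalization. Under that scaling 8 members were lower and 1 higher in striatum, and 9 lower and 1 higher in cortex, Foxp1 being the higher one in each. Of all 20495 tested genes, 4906 were then lower and 4831 higher in striatum, and 4874 lower and 5349 higher in cortex. The genes called lower in both regions with the deposited scaling were Penk, Gpr6, Rgs9, Pde10a, Adcy5, Rxrg, Ptpn5, Arpp21 and Strip2. In striatum quantile normalization ended the calls of Penk (-1.44, adjusted p = 0.057), Rgs9 (-0.51, 0.23), Pde10a (-0.45, 0.22) and Arpp21 (-0.87, 0.076), and in cortex that of Adcy5 (-0.47, 0.24). Rgs9 in striatum was also lost without the 6 arrays low in Pvalb (-0.59, adjusted p = 0.21), and Penk with the Xist covariate (-1.49, 0.053) or without PV-tdTomato striatum replicate 4, PVCre striatum replicate 1 or PVCre striatum replicate 3 (-1.66 to -1.76, 0.053 to 0.062). Ptpn5 was lower by -2.10 ± 0.32 (limma adjusted p = 0.0001) in striatum and -2.37 ± 0.32 (adjusted p = 3.9e-05) in cortex, from 8.22 to 8.67 in PV-tdTomato striatum to 6.12 to 6.61 in PVCre striatum. Gpr6 was lower by -2.08 ± 0.34 and -1.86 ± 0.34, and Pdyn by -2.09 ± 0.30 (adjusted p = 5.2e-05) in striatum. Drd1, Drd2, Bcl11b, Rarb, Actn2 and Syndig1l were among those not called in either region. The microglial markers, at 5.57 to 5.77 in PV-tdTomato striatum and 5.42 to 5.94 in cortex, were at 7.99 to 9.48 and 7.59 to 10.06 in PVCre, with 17 of 17 called higher in each region. Their part in the line differences was not tested.

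Other genes of the striatum were read in the same fits. Of 30 further genes known for striatal expression, 28 were measured and 22 tested. Of the 22, 4 were higher in PV-tdTomato striatum, 3 in PVCre striatum and 6 over both lines, and 0 were lower in any of these. Beside these counts, 1.73%, 2.85% and 3.32% of all tested genes were called higher. The medians of the 22 genes were 0.31, 0.48 and 0.42. When the 6 arrays low in Pvalb were left out, 5, 3 and 5 were higher, and 1 was lower in PVCre and over both lines. Of all tested genes 3.23%, 2.06% and 4.58% were then called higher. With all arrays, the 4 of the 22 genes with the smallest p over both lines were Scn4b, Nexn, Meis2 and Rgs4. Scn4b, a sodium channel beta subunit, rose by 0.90 ± 0.13 (limma adjusted p = 0.00057), with 5.92 to 7.06 in striatum and 5.01 to 5.94 in cortex. Meis2, a homeobox factor of striatal precursors, rose by 1.45 ± 0.25 (adjusted p = 0.0022), Nexn by 0.96 ± 0.15 (0.00077) and Rgs4, a regulator of G protein signalling, by 2.16 ± 0.37 (0.0023).

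Of the dopamine and cAMP signalling pathway, 32 genes outside the set were tested, and limma called 0 in either line and 0 over both, with 2, 4 and 6 at an unadjusted p under 0.05. Their medians were 0.05, 0.29 and 0.16. Gnal, the stimulatory G protein alpha subunit that couples the D1 and A2a receptors in striatum, differed by 1.87 ± 0.56 over both lines (adjusted p = 0.086), with 11.05 to 13.07 in striatum. Of the 32, 1 was called, lower in PV-tdTomato striatum, when the 6 arrays low in Pvalb were left out.

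Markers of other cells also moved with the region. Of the 9 marker lists, the ependymal one had the largest median difference in each line, 3.41 and 3.05. These are genes of the ciliated cells that line the ventricle beside the striatum: 10 of 11 were higher in PV-tdTomato striatum and 11 of 11 in PVCre striatum. Their mean level was 8.11 to 9.00 in PV-tdTomato striatum against 5.56 to 5.65 in cortex, and 9.33 to 10.45 in PVCre striatum against 5.75 to 6.18 in cortex. Tmem212, a defining marker, reached 10.86 to 12.47 and 13.99 to 15.63 in the striatal groups and was at 5.59 to 6.73 in all cortical arrays. The mean of the 30 projection neuron genes was 7.90 to 8.10 and 7.19 to 7.66 in the striatal groups and 6.89 to 7.59 and 6.40 to 6.72 in the cortical ones. The ependymal list thus stood higher in PVCre than in PV-tdTomato striatum, and the projection neuron list lower. The part of other cells in the region differences was not tested.

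Of the endothelial and mural markers 1 of 14 was higher in PV-tdTomato striatum and 7 of 14 in PVCre striatum, at a mean level of 6.16 to 6.37 and 6.86 to 8.82 against 5.71 to 6.74 and 5.90 to 6.19 in cortex. The PVCre count was 1 of 14 without the 6 arrays low in Pvalb, a fit that kept only replicates 1 and 3 of PVCre cortex. The median PVCre difference of these markers was 1.60 with all arrays and 1.62 in that fit. Of the astrocyte markers 2 of 11 were higher in each line. Of the other GABAergic markers, 7 of 16 were lower and 1 higher in PV-tdTomato striatum, at 8.48 to 8.85 against 9.47 to 11.49 in cortex, and 1 of 16 was higher in PVCre striatum. Limma called 0 of 12 pyramidal neuron markers in either line, with 4 and 5 at an unadjusted p under 0.05, and over both lines 1 was higher and 1 lower, the latter Slc17a7, the vesicular glutamate transporter of cortical excitatory cells (-0.86 ± 0.22, limma adjusted p = 0.034). Oligodendrocyte markers averaged 11.76 to 14.48 per array. In PV-tdTomato they were at 11.76 to 12.28 in replicates 1 and 2. They were at 13.86 to 14.37 in replicates 3 and 4 of that line, which were low in Pvalb. Their median difference was -0.34 in PV-tdTomato, -0.70 in PVCre and -0.46 over both lines, with 1, 0 and 0 of the 15 markers positive. Limma called 0 of 15 of them and 0 of 17 microglial markers by region in either line or over both, with 1 and 0 at an unadjusted p under 0.05 over both lines. Leaving out the 6 arrays low in Pvalb, 1, 5 and 6 of the 15 oligodendrocyte markers were lower in striatum in PV-tdTomato, PVCre and over both lines. Of the parvalbumin interneuron markers it called 0 of 16 in PV-tdTomato, with 2 at an unadjusted p under 0.05, and 1 in PVCre. Cholinergic interneurons also express Drd2. Of their 5 markers 2 were tested, and 1, Lhx8, was higher in PV-tdTomato striatum. Of the defining ones, Chat was at 4.93 to 5.18 and Slc18a3 at 3.54 to 4.28 in every striatal array, within the background. Slc5a7, the choline transporter, was at 6.73 to 7.12 in PV-tdTomato striatum and 6.39 to 7.24 in cortex, above the background, and at 4.87 to 5.16 in PVCre striatum. Lhx8, a factor of cholinergic and other subpallial neurons, was at 8.89 to 11.56 in PV-tdTomato striatum and 6.96 to 7.67 in PVCre striatum.

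**Figure D4:**
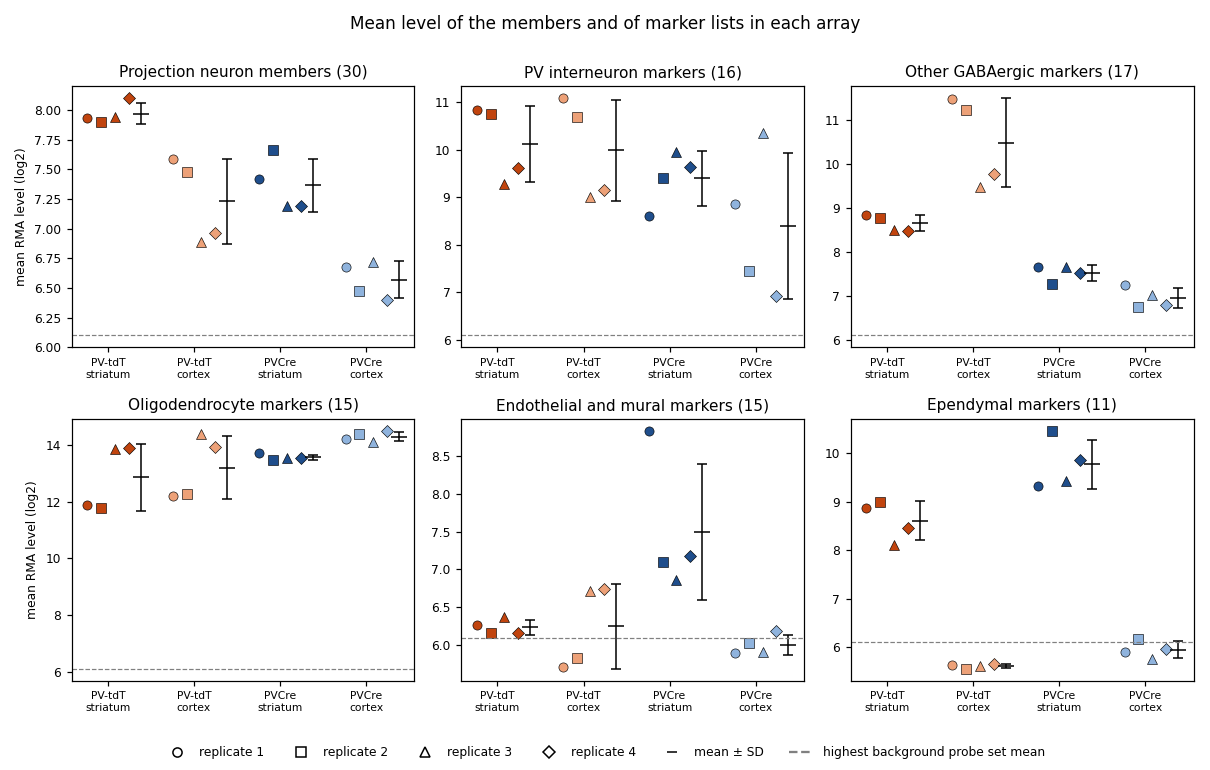
Mean RMA level (log2) of the 30 measured projection neuron genes and of 5 marker lists (number of genes in brackets) in each array, by line and region, with the group mean ± SD beside the points and the highest background mean as a dashed line. The projection neuron mean is 7.90 to 8.10 in PV-tdTomato striatum and 6.40 to 6.72 in PVCre cortex, and the ependymal mean separates striatum from cortex in both lines.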

How the data were processed

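The deposited values are log2 levels that the authors computed by RMA (background correction, normalization and probe set summary). The submitters' processing notes name Affymetrix Expression Console, whose version is not given in the sources used here. RNA of each pool (5 ng, per the labels) was amplified and hybridised to a Mouse Transcriptome Array. Array medians lay between 5.97 and 6.13, and no 2 arrays were identical. The number of arrays, not a read depth, limits the precision. Of 65956 transcript clusters, 31216 had 1 gene by the platform annotation, 1534 several and 33206 none; 874 symbols were updated through Entrez numbers. The cluster with the highest mean stood for each of 30743 genes, and the 33.3% with the lowest mean (under 5.53) were left out. In R 4.3.3, limma 3.58.1 fitted 1 mean per group over 16 arrays (lmFit, then eBayes), and p-values were adjusted over 20495 genes by Benjamini-Hochberg. The fit was tested on simulated data. Errors of differences are standard errors.

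The members and lists were chosen with earlier results of these data known. Values in every array are given for direct and indirect members and for shared members called in a line; for the lists of other striatal and pathway genes, up to 4 called genes with the smallest p are named, and a further few were chosen after their values were seen. The main fits took no arrays as pairs, and only the alternatives with a block did. Striatal and cortical PV-tdTomato arrays of the same number deviated from their group means together (r = 0.76, 0.58, 0.70 and 0.62 across genes). That these numbers mark pairs is an assumption, since arrays 1 and 2, and 3 and 4, also resemble each other (r = 0.55 to 0.66). Striatum 2 went more with cortex 1 (0.66) than with cortex 2, and striatum 4 more with cortex 3 (0.64) than with cortex 4. PVCre arrays of the same number were at -0.01, 0.28, 0.69 and -0.29, although the fixed block by replicate number treats them as pairs too. In both lines, however, Xist was high or low alike in striatal and cortical arrays of the same number. In PVCre cortex the titles and the descriptions number the replicates differently, and the titles were used. Alternatives were other filters, quantile normalization, median centring, a trended robust prior, array weights, fits limited to the arrays compared, a fixed block by replicate number, the description number as a random block (statmod 1.5.0), the mean of all clusters of a gene, another assignment of members, leaving out the 6 arrays lowest in Pvalb and leaving out each array. The Xist covariate was chosen after seeing the data. Tables, motif searches and plots used matplotlib 3.10.9, numpy 2.4.6 and pandas 2.3.3 under Python 3.11.15.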

Additional observations from a re-analysis of the deposited data

Results flagged for a closer look

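Among 108 groups of 4 arrays (27 genes, 4 groups each), 3 had an array far from the others; chance alone gives about 1 in 20 such groups. In PVCre striatum, replicate 2 had the highest level of both Drd2, at 10.40 against 9.11 to 9.21 in the other arrays, and Ppp1r1b, at 7.87 against 6.85 to 6.96. Without that array the Ppp1r1b difference in PVCre was 0.82 (limma adjusted p = 0.059). The same array was the only one of PVCre striatum with low Xist, at 5.90. In PV-tdTomato striatum, replicate 2 had Foxp2 at 7.09, against 6.47 to 6.51 in the others.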

How the results depend on the processing

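No member reversed direction with a call under any alternative that was run. Leaving out each array in turn gave 4 to 8 called members in PV-tdTomato, 5 to 8 in PVCre, 13 to 15 over both lines, 0 for the difference between lines, and, between the lines' levels, 11 to 14 in striatum and 9 to 13 in cortex. The 5 in PVCre came without striatum replicate 2 or cortex replicate 4. With array weights the counts were 14 in PV-tdTomato, 13 in PVCre, 19 over both lines and 1 (Pdyn) between lines; background calls rose too, to 1082, 1422 and 3273 of 20495 genes higher in the first 3. With a random block by description number (consensus correlation 0.31) 11 were called in PV-tdTomato, with Drd2, Gpr6, Sp9, Pde10a and Pde1b added, and Ebf1 and Penk were added over both lines. Of all tested genes 2.48% were then called higher in PV-tdTomato and 4.82% over both lines. Without the 6 arrays lowest in Pvalb, 2 members (Pdyn, Penk) differed between lines, beside 123 genes called higher and 31 called lower of 20495. The counts were 4, 7 and 11 in the region comparisons, the last with 10 higher and 1 lower. Beside these, 3.23%, 2.06% and 4.58% of all tested genes were called higher. With the replicate number as a block 8 were called in PV-tdTomato, 12 in PVCre, 17 over both lines and 0 between lines. Beside the first 3 counts, 2.01%, 5.4% and 5.63% of all tested genes were called higher. This block treats the numbers as pairs in both lines. In PVCre, arrays of the same number deviated from their group means with r = -0.01, 0.28, 0.69 and -0.29. The PVCre and both-line counts under the block thus rest on a pairing that these values do not establish. Added by the block were Sp9 and Pde1b in PV-tdTomato, Ebf1, Gpr52, Sp9 and Syndig1l in PVCre, and Ebf1, Penk, Gpr52 and Foxp1 over both lines. With the Xist level as a covariate, 6, 6 and 13 were called by region, beside 1.72%, 2.61% and 3.18% of all tested genes called higher. The causes were not tested. Fits on only the arrays compared do not apply to values over both lines, nor the fixed block to line effects. Without the filter, Six3 (0.29 ± 0.07, limma adjusted p = 0.029) and Serpina9 (0.45 ± 0.11, adjusted p = 0.039) were called over both lines, at levels within the background.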
